A study of Mus musculus with 12 samples.

Results

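The genes described here encode the 5 kainate-type glutamate receptor subunits, Grik1, Grik2, Grik3, Grik4 and Grik5, and one subunit of the delta family, Grid1. They were chosen by symbol from a table of normalized counts, with earlier results of these data known, and they make up 6 of its 15759 entries. All 6 had a mean of at least 10 normalized counts over the libraries, and so were among the 15369 entries tested. RNA was measured by bulk sequencing in the cortex and cerebellum of a knock-in mouse model of spinocerebellar ataxia type 1 (SCA1), an inherited disease in which an expanded glutamine tract in ataxin-1 affects the Purkinje cells and other neurons. SCA1 KI mice (Atxn1 154Q/2Q) carry 1 Atxn1 allele with the expanded repeat, expressed from its endogenous locus in every cell type that uses it, and the controls were wild-type (WT) littermates. Both genotypes were on a C57BL/6J background and 12 weeks old, and received no treatment. There were 3 biological replicates of each genotype in each region, giving 12 libraries in 4 groups. The sample labels state that males were sequenced, whereas the methods of the study speak of males and females.

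Kainate receptors are cation channels opened by glutamate and built from 4 subunits. The proteins encoded by Grik1 (GluK1), Grik2 (GluK2) and Grik3 (GluK3) form channels on their own, whereas those encoded by Grik4 (GluK4) and Grik5 (GluK5) bind kainate with high affinity and reach the membrane as channels only together with one of the former. In the cerebellum GluK2 is known as a granule cell subunit, and in the cortex kainate receptors act both at synapses and in tuning transmitter release. Delta receptors share this architecture but are better known as adhesion proteins, which are held by secreted cerebellins (Cbln) to neurexins on the opposite, presynaptic membrane.

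A stretch shared by the 6 genes is the pore loop, where the adenosine deaminase ADAR2, the product of Adarb1, edits a glutamine codon in the RNA of Grik1 and Grik2. It is shown because Adarb1 is among the kainate receptor partners measured below. The coding sequence around it is given 5′ to 3′ from the longest coding transcript of each gene in the GENCODE vM21 annotation of GRCm38, with the glutamine codon that aligns with the edited one in capitals:
Grik1: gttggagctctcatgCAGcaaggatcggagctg
Grik2: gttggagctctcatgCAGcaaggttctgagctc
Grik3: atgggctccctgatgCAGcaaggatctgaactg
Grik4: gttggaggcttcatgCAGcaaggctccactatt
Grik5: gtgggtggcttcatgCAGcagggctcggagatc
Grid1: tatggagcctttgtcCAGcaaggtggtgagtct
All 6 genes carried the codon CAG there. Of the 33 bases shown, Grik1 shared 30 with Grik2, Grik3 and Grik5 shared 24 each, Grik4 shared 23 and Grid1 shared 21. In Grik2 it is codon 621, in exon 13 of 17 on the minus strand (chr10:49244329-49244331), and in Grik1 it is codon 636, in exon 13 of 18 on the minus strand (chr16:87940542-87940544). Editing itself was not measured, since the files hold gene counts.

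The genes lie on 6 chromosomes (GRCm38, GENCODE vM21): Grik1 at chr16:87895900-88290265, Grik2 at chr10:49094833-49788766, Grik4 at chr9:42518135-42944493 and Grik5 at chr7:25009849-25072346 on the minus strand, and Grik3 at chr4:125490700-125714173 and Grid1 at chr14:34820108-35583379 on the plus strand. Their exons overlapped those of another gene by 59 bases in Grik4 and 91 bases in Grid1, a small annotated RNA on the same strand in each case. RefSeq promoters (GRCm38.p6; 250 bases before to 50 after the start) were matched for 4 of the 6, Grik2, Grik3, Grik4 and Grik5. The 250 bases before the start are shown for Grik2 and Grik5, which passed the genotype test in opposite directions and in different regions, with the GC box (GGGCGG on either strand) in capitals:
Grik2, chr10:49788755-49789004, minus strand: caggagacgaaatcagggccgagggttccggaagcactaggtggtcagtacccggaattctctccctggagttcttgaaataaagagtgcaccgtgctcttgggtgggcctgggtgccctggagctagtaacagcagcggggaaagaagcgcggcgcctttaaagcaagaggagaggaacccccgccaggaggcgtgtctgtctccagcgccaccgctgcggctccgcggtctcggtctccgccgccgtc
Grik5, chr7:25072370-25072619, minus strand: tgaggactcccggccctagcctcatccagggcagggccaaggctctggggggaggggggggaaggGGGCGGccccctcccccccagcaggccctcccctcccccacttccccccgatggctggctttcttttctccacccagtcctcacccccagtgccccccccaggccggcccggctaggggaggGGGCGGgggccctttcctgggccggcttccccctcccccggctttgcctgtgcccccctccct
The GC box occurred 0 times in the 300-base promoter of Grik2, 2 times each in Grik4 and Grik5 and 7 times in Grik3, and it was found in 35.66% of the 32851 promoters of the table. The octamers TGAATGAA and TCAATGAA, which are bound by capicua, a repressor that forms a complex with ataxin-1, were each in 0 of the 4 promoters, against 1.303% and 0.7488% of all promoters. The cyclic AMP response element TGACGTCA was also in 0 of the 4, against 1.79% of all. Each motif was searched on both strands, and a motif outside these windows was not looked for.

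The libraries held 29520855 to 51311309 reads on genes, with 34103546 to 39927889 in the cortex, so that the lowest value of any member, 353.8 normalized counts, was well above the filter. Levels of Atxn1, which the knock-in allele still transcribes, were 7370 ± 815 normalized counts (SD, n = 3) in WT and 6040 ± 1337 in SCA1 KI cortex (LFC, the log2 fold change, -0.31, adjusted p = 0.132), and 3679 ± 54.9 and 3889 ± 221 in the cerebellum (LFC 0.08, adjusted p = 0.837), so the total count of Atxn1 did not separate the genotypes. The cerebellar libraries were taken from an earlier dataset of the same laboratory, and region and dataset therefore cannot be told apart. The tissues carried their own markers, with a summed normalized count of 8 granule cell markers of 97837 to 144039 in the cerebellum and 4174 to 5355 in the cortex. Some libraries stood apart in markers of neighbouring tissue. The summed normalized count of 8 thalamus and midbrain markers was 5775 to 10908 in WT cerebellum against 2065 to 2692 in SCA1 KI cerebellum, with 7 of 8 lower, and 1929 to 2270 in WT against 3010 to 3874 in SCA1 KI cortex, with 3 of 8 higher. Of all entries tested, 4.44% were lower in the cerebellum and 4.82% higher in the cortex. Cortical WT library B had the highest sum of 7 striatal markers (23486, against 11218 and 12155 in the other WT cortices) and of 8 oligodendrocyte markers (138370, against 82137 and 88147). SCA1 KI library A had the lowest striatal sum of the cortices (7926, against 11686 and 13215 in the other SCA1 KI cortices).

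Levels were first compared between the genes, per kilobase (kb) of exon, to describe the make-up of the receptor transcripts in each region. Grik5 had the highest level in all 4 groups, at 1871 normalized counts per kb in WT cortex and 524 in WT cerebellum. In WT cortex it was followed by Grik3 at 479 and Grid1 at 413, whose libraries overlapped, then by Grik4 at 149 and Grik2 at 143, which overlapped as well, and Grik1 was lowest at 86.7. In WT cerebellum the order was Grik5, Grik3 at 442, Grik2 at 271, Grid1 at 202 and Grik1 at 171, of which the last pair overlapped, with Grik4 lowest at 129.

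Grik5 led the SCA1 KI groups as well. In SCA1 KI cortex Grik5 stood at 1435 per kb, Grik3 and Grid1 overlapped at 389 and 388, and Grik2 at 144 lay above Grik4 at 119 without overlap, with Grik1 last at 74.4. In SCA1 KI cerebellum no neighbours in the order overlapped, with Grik5 at 576, Grik3 at 442, Grik2 at 351, Grid1 at 163, Grik1 at 141 and Grik4 at 101. When the length of the longest coding transcript was used instead of all exons, Grik5 was first in each group too, but Grik1 moved above Grik4 in both cortex groups above Grid1 in both cerebellum groups and above Grik2 in WT cerebellum, Grik2 moved above Grik4 in WT cortex and above Grik3 in SCA1 KI cerebellum, and Grid1 moved above Grik3 in SCA1 KI cortex, so the lower ranks depend on which transcripts are made.

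Transcripts of the high-affinity subunit genes Grik4 and Grik5 together made up most of the kainate receptor RNA level in the cortex but not in the cerebellum. Their share of the summed level per kb of Grik1 to Grik5 was 74.0% ± 3.06 (SD, n = 3) in WT cortex and 72.0% ± 1.68 in SCA1 KI cortex, against 42.5% ± 1.38 in WT and 42.0% ± 1.16 in SCA1 KI cerebellum. Grik2 took 5.24% ± 0.53 of the level in WT cortex and 17.6% ± 1.30 in WT cerebellum. In SCA1 KI tissue it took 6.65% ± 0.268 and 21.8% ± 0.635. The share of Grik2 was higher in each SCA1 KI library than in each WT library of the same region. In the cortex this came with a lower summed level, while the count of Grik2 itself did not pass (LFC 0.01, limma adjusted p = 0.948). In the cerebellum the share of Grik1 was lower without overlap, at 10.6% to 11.7% in WT and 7.89% to 9.41% in SCA1 KI. That of Grik4 was too, at 7.93% to 9.20% and 5.77% to 6.59%. The cerebellar shares of Grik3 and Grik5 overlapped between the genotypes. Shares within a library depend on each other, since a rise of one lowers the rest. For counts, the genotypes did not overlap in 30.9% of all entries tested in the cortex and 31.8% in the cerebellum. The summed level was 2729 ± 201 per kb in WT and 2161 ± 146 in SCA1 KI cortex, and 1537 ± 38.8 and 1611 ± 35.5 in WT and SCA1 KI cerebellum. The shares are a description without a test, and they too depend on the lengths used. They concern RNA, and the subunits in assembled receptors were not measured.

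**Figure D1:**
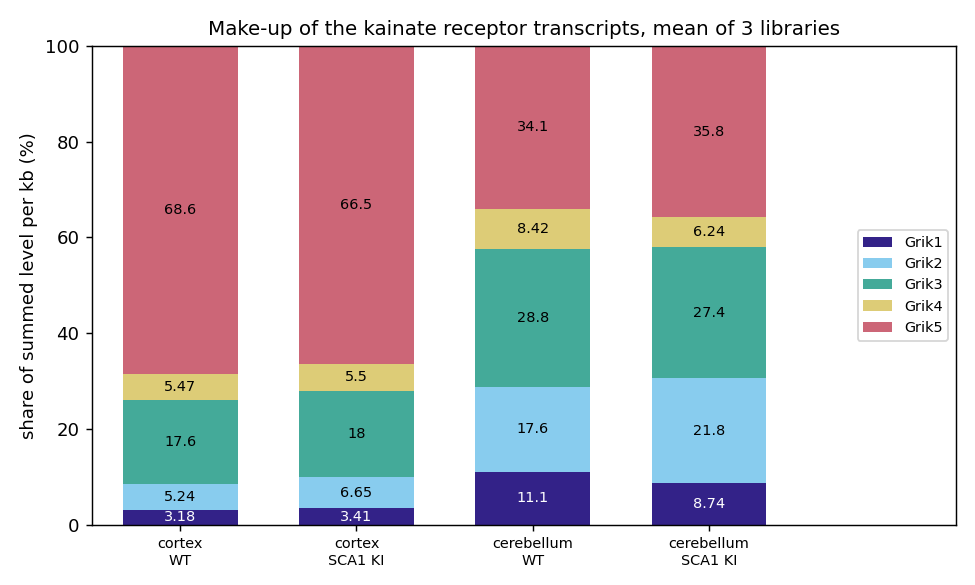
Share of each kainate receptor gene in the summed level per kb of Grik1 to Grik5 (y axis, percent) in the 4 groups (x axis), each bar the mean of 3 libraries with the mean share printed in each segment. Grik5 takes 68.6% in WT cortex and 34.1% in WT cerebellum, and Grik2 takes 5.24% and 17.6%.

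The regions differed in 4 of the 6 genes, in each genotype. In WT mice Grik5 and Grid1 were higher in the cortex and Grik1 and Grik2 were higher in the cerebellum. Of all entries tested, 31.0% were called higher and 30.7% lower in the cortex of WT mice, and 32.0% and 30.5% in SCA1 KI mice, where a call needed an adjusted p below 0.05 and an LFC beyond 0.25 in either direction (limma, Benjamini-Hochberg adjustment), so that a call between the regions is common. Grik5 had 9670 ± 892 normalized counts in WT cortex and 2706 ± 140 in WT cerebellum (LFC 1.83, SE 0.072, limma adjusted p = 2.54e-10). Grid1 had 2462 ± 156 and 1207 ± 156 (LFC 1.03, SE 0.091, limma adjusted p = 4.21e-07). Grik1 had 583 ± 43.8 in WT cortex and 1147 ± 60.1 in WT cerebellum (LFC -0.98, SE 0.154, limma adjusted p = 9.31e-05), and Grik2 had 1891 ± 188 and 3589 ± 272 (LFC -0.93, SE 0.090, limma adjusted p = 1.17e-06).

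Grik3 and Grik4 were the genes for which no difference between the regions was called. The LFC of Grik3 was 0.10 in WT mice (95% interval -0.127 to 0.331, limma adjusted p = 0.411) and -0.19 in SCA1 KI mice (interval -0.418 to 0.0406, adjusted p = 0.131). Grik4 had an LFC of 0.20 in WT mice (interval 0.0175 to 0.392, limma adjusted p = 0.0512) and of 0.24 in SCA1 KI mice (interval 0.0556 to 0.430, adjusted p = 0.0241), the latter below the limit on the LFC. In SCA1 KI mice the LFC between the regions was 1.32 for Grik5, 1.24 for Grid1, -0.95 for Grik1 and -1.29 for Grik2. These comparisons share no library between the genotypes, and the difference of the genotype LFC between the regions is given for each of the 6 genes below.

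Next, SCA1 KI mice were compared with WT littermates in the cortex, where 4.82% of all entries tested were called higher and 10.8% lower. Both high-affinity subunits were lower in SCA1 KI cortex, Grik5 by 23.1% and Grik4 by 20.2% on the log2 scale of the test, and no member was called higher. The count was thus 2 of 6 lower and 0 of 6 higher. The median LFC over the 6 genes was -0.27, against -0.0028 over all entries tested. WT and SCA1 KI values had no overlap in 2 of the 6, Grik4 and Grik5, and in 30.9% of all entries tested.

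Grik5, whose product is the high-affinity subunit GluK5, had 9971, 8667 and 10373 normalized counts in the WT cortex libraries B, C and D and 7023, 7629 and 7598 in the SCA1 KI libraries A, E and F. Every SCA1 KI library lay below every WT library. The LFC was -0.38 (SE 0.072, limma adjusted p = 0.00308). It stayed called without each library in turn, and was -0.23 (adjusted p = 0.0157), below the limit on the LFC, when a trend on gene length and GC content was removed.

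Grik4, which encodes the related subunit GluK4, had 951.8, 863.6 and 849.3 in WT and 681.0, 718.6 and 724.4 in SCA1 KI cortex, also without overlap. Its LFC was -0.33 (SE 0.086, limma adjusted p = 0.0204). The highest WT value was in library B and the lowest SCA1 KI value in library A. The call was lost without WT library B (LFC -0.27, adjusted p = 0.0744) and without SCA1 KI library A (LFC -0.30, adjusted p = 0.0574), and without both the LFC was -0.25 (adjusted p = 0.121).

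The 3 low-affinity subunits did not pass in the cortex. Grik3, which forms receptors of low glutamate sensitivity, had 5075, 4182 and 3636 in WT and 3062, 3712 and 3703 in SCA1 KI cortex. The groups overlapped through WT library D, and library A was again the lowest. The LFC was -0.29 (95% interval -0.521 to -0.0622, limma adjusted p = 0.0782). With DESeq2 the gene was called (LFC -0.30, adjusted p = 0.0452), as it was without WT library D (LFC -0.41, adjusted p = 0.0157), whereas the LFC was -0.14 (adjusted p = 0.173) with the trend on length and GC content removed, -0.16 (adjusted p = 0.260) without WT library B and -0.07 (adjusted p = 0.534) without libraries A and B together.

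Grik1 had 617.9, 533.7 and 596.6 in WT cortex and 353.8, 555.6 and 591.1 in SCA1 KI cortex. Only library A was below the WT range. The LFC was -0.25 (95% interval -0.586 to 0.0802, limma adjusted p = 0.297), and it was -0.02 (adjusted p = 0.913) without library A and 0.02 without libraries A and B.

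Grik2 had 2082, 1883 and 1707 in WT cortex and 1674, 2036 and 2009 in SCA1 KI cortex, with the genotypes interleaved. Its LFC was 0.01 (95% interval -0.185 to 0.207, limma adjusted p = 0.948). Grid1 had 2642, 2355 and 2390 in WT and 2235, 2505 and 2195 in SCA1 KI cortex, which overlapped, with an LFC of -0.09 (interval -0.288 to 0.105, limma adjusted p = 0.540).

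Sums of cortical neuron markers were lower in SCA1 KI cortex, as Grik4 and Grik5 were. The summed level of 7 cortical excitatory neuron markers was 83750 to 85688 in WT and 56188 to 65952 in SCA1 KI cortex. Of the 7, 3 were lower and 0 higher, against 10.8% and 4.82% of all entries tested. The 3 were Slc17a7, the main cortical vesicular glutamate transporter (LFC -0.50, limma adjusted p = 0.00815), Cux2 of the upper layers (LFC -0.64, adjusted p = 0.000123) and Rorb of layer IV (LFC -0.91, adjusted p = 0.000375). In bulk tissue fewer cells of a type and less RNA per cell cannot be told apart, and the part of these markers in the values of Grik4 and Grik5 was not tested. The sum of 9 forebrain interneuron markers was 12957 to 13883 in WT and 8742 to 10056 in SCA1 KI cortex, with 1 of 9 lower. Of 8 astrocyte markers 5 were lower as well. Within SCA1 KI cortex library F had the lowest excitatory sum (56188) but the highest Grik4. Library A (58602) had the lowest Grik4 and Grik5, and library E the highest sum (65952) and the highest Grik5. In WT cortex library C had the lowest sum (83750) and the lowest Grik5. Library B had the highest sum (85688) and the highest Grik4. Library D, with a sum of 85375 close to that of B, had the lowest Grik4 and the highest Grik5 of the WT cortices.

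**Figure D2:**
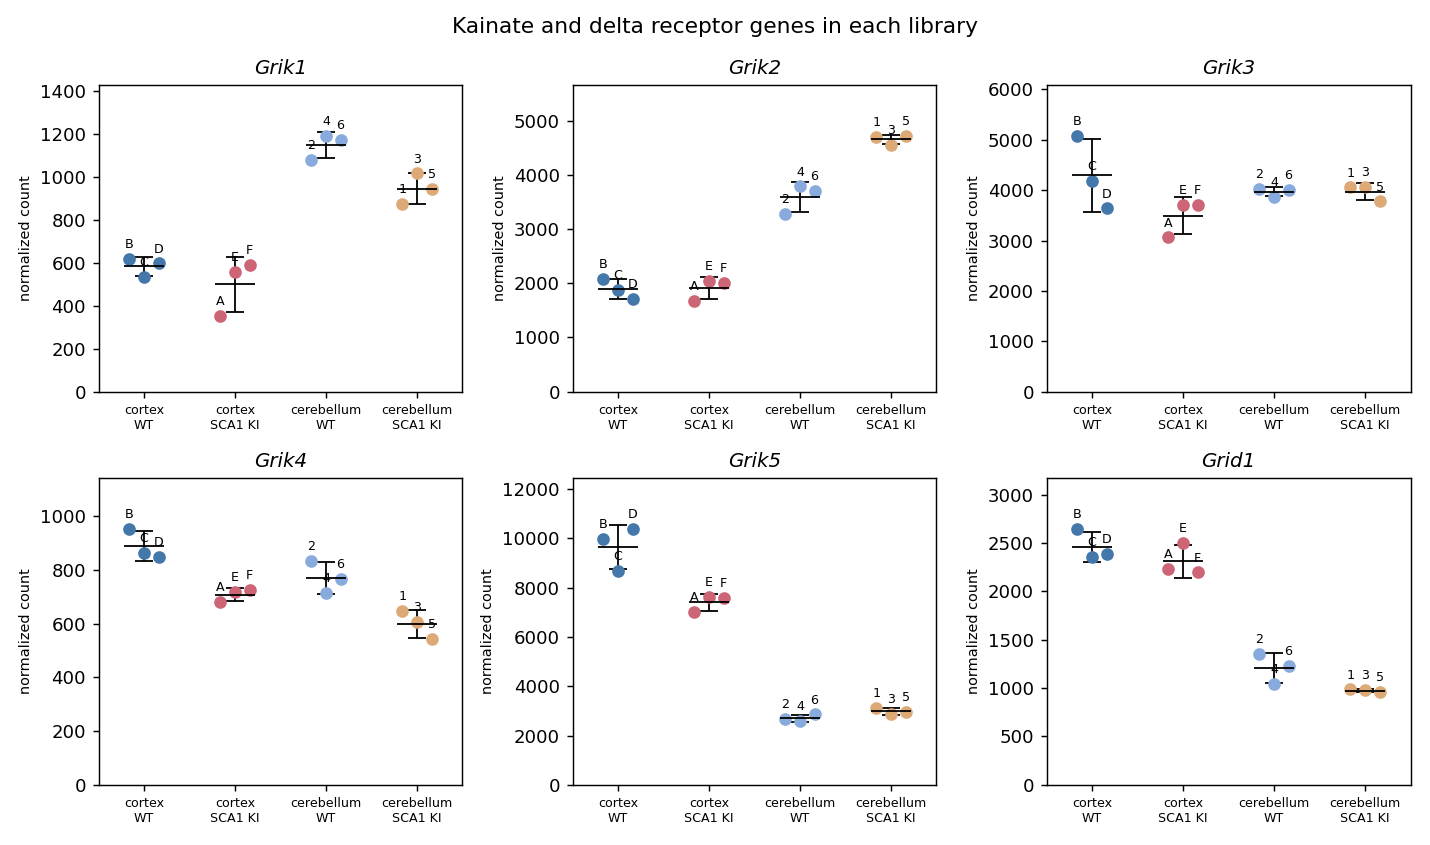
Normalized counts (y axis, linear, from 0) of the 6 genes in each library, by group (x axis), with the mean and SD of 3 libraries in black and each library marked by its letter or number. Grik4 is lower in SCA1 KI libraries in both regions without overlap, Grik5 in the cortex, and Grik2 is higher in SCA1 KI cerebellum. In the cerebellum Grik1, Grik5 and Grid1 do not overlap either. The same holds for 30.9% of all entries tested in the cortex and 31.8% in the cerebellum.

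In the cerebellum, where the Purkinje cells affected in SCA1 lie, 0.917% of all entries tested were called higher and 4.44% lower. Grik2, which encodes the main granule cell subunit GluK2, was 29.9% higher in SCA1 KI mice, and Grik4 was 22.3% lower, so that 1 of 6 was called in each direction. The median LFC over the 6 genes was -0.14, against -0.0049 over all entries tested. WT and SCA1 KI values had no overlap in 5 of the 6, all but Grik3, and in 31.8% of all entries tested.

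Grik2 had 3279, 3785 and 3704 normalized counts in WT libraries 2, 4 and 6, and 4694, 4556 and 4717 in SCA1 KI libraries 1, 3 and 5. All SCA1 KI values lay above the WT values, of which library 2 was the lowest. The LFC was 0.38 (SE 0.090, limma adjusted p = 0.0281). Leaving out a single cerebellar library left it at 0.31 to 0.42, but took the adjusted p above 0.05 in 5 of 6 cases, to 0.118 without WT library 2, 0.105 without SCA1 KI library 1, 0.0805 without 3, 0.0990 without 5 and 0.0617 without WT library 6.

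Grik4 had 832.6, 714.6 and 766.4 in WT and 647.9, 607.6 and 543.1 in SCA1 KI cerebellum. The SCA1 KI values were all lower. The LFC was -0.36 (SE 0.086, limma adjusted p = 0.0272). The call was lost without WT library 2 (LFC -0.31, adjusted p = 0.111), WT library 6 (-0.37, adjusted p = 0.0771), SCA1 KI library 3 (-0.38, adjusted p = 0.0833) or SCA1 KI library 5 (-0.29, adjusted p = 0.127), and when the cerebellum was fitted alone (adjusted p = 0.0540).

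The other 4 members did not pass in the cerebellum. Grid1 had 1351, 1041 and 1228 in WT and 986.6, 978.4 and 957.5 in SCA1 KI cerebellum, where the SCA1 KI libraries lay close together below the WT range. Its LFC was -0.30 (95% interval -0.496 to -0.104, limma adjusted p = 0.0810), and it was called with DESeq2 (LFC -0.31, adjusted p = 0.0271) and without WT library 4 (LFC -0.40, adjusted p = 0.0117). Grik1 had 1078, 1190 and 1173 in WT and 874.5, 1015 and 944.9 in SCA1 KI mice, lower without overlap, with an LFC of -0.28 (interval -0.613 to 0.0524, limma adjusted p = 0.388). The SE of this fit, which is shared with the cortex groups, was 0.154. It was 0.070 with the cerebellum fitted alone (limma adjusted p = 0.0608). Without SCA1 KI cortex library A it was 0.081 (limma adjusted p = 0.0629).

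Grik5 had 2689, 2576 and 2854 in WT and 3121, 2865 and 2945 in SCA1 KI cerebellum, the latter just above the former. Its LFC was 0.14 (95% interval -0.0190 to 0.295, limma adjusted p = 0.365). With the trend on length and GC content removed it was 0.26 (adjusted p = 0.0182), and Grik5 was then called higher. Grik3 had 4033, 3862 and 4007 in WT and 4055, 4070 and 3777 in SCA1 KI cerebellum, where the range of the former lay within that of the latter, with an LFC whose interval ran from -0.230 to 0.229 (limma adjusted p = 0.999).

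The markers of neighbouring tissue named above also varied within the WT cerebellum. WT libraries 2, 6 and 4 had thalamus and midbrain sums of 10908, 7370 and 5775. The same order from high to low held for Grik3, Grik4 and Grid1 and the opposite order for Grik1 and Grik2, while Grik5 followed neither. Of these, Grik3 did not differ between the genotypes, and Grik1 was lower in SCA1 KI libraries, where Grik2 was higher. Among the SCA1 KI libraries, whose sums of 2065, 2288 and 2692 in libraries 1, 3 and 5 were closer together, Grik4 and Grid1 ran the other way, with the highest values in library 1 and the lowest in library 5, and Grik2 was highest in library 5. Grik1 and Grik3 were highest in library 3. Library 2 also had the lowest sum of 8 granule cell markers, 97837, against 133844 and 144039 in the other WT libraries and 141345 to 143513 in SCA1 KI libraries, and 0 of those 8 markers passed in either direction. The oligodendrocyte sum was 179530 to 268734 in WT and 153827 to 153888 in SCA1 KI cerebellum, with 0 of 8 called. Within the WT libraries it ran in the same order as the thalamus and midbrain sum, and the granule cell sum in the opposite order. Orders of 3 libraries are a description without a test, and the share of all entries that follow them was not counted. The part of these tissues in the values of the members was not tested.

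**Figure D3:**
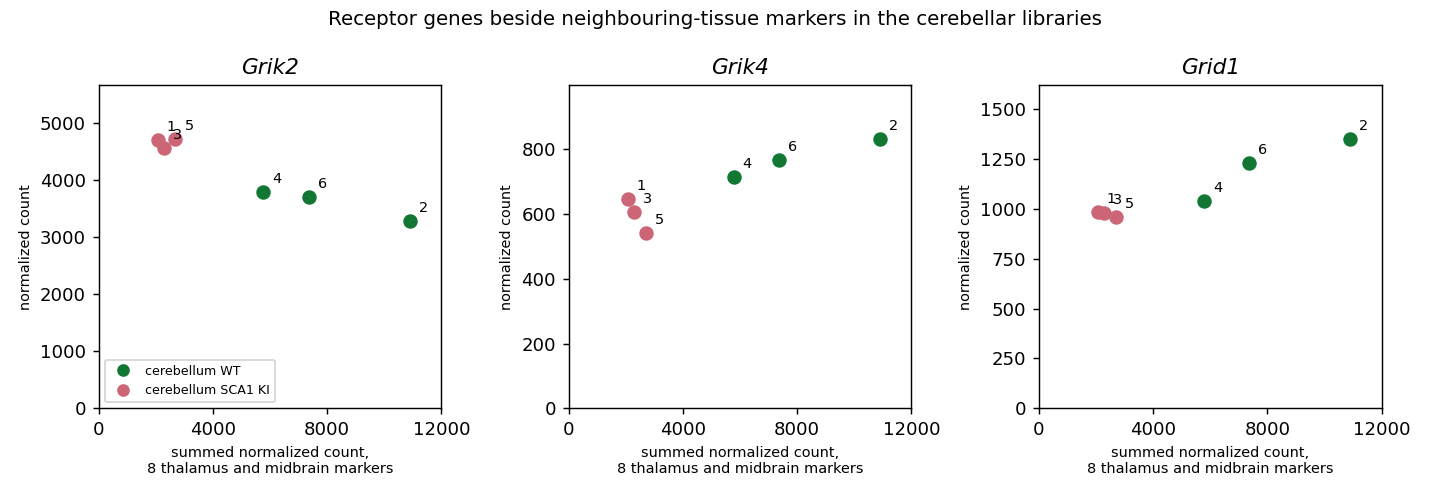
Normalized counts of Grik2, Grik4 and Grid1 (y axes, linear, from 0) against the summed normalized count of 8 thalamus and midbrain markers (x axis) in the 6 cerebellar libraries, each marked by its number, with WT in green and SCA1 KI in red. The WT sums reach from 5775 to 10908 and the SCA1 KI sums from 2065 to 2692, and the WT library with the highest sum has the lowest Grik2 and the highest Grik4 and Grid1, whereas the SCA1 KI library with the highest sum has the highest Grik2 and the lowest Grik4 and Grid1 of its group.

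To ask whether the genotype difference itself differed between the regions, the LFC in the cortex was compared with that in the cerebellum in the same fit, in which 8.15% of all entries tested were called in either direction. Grik5 was the only one of the 6 genes called, with a difference of -0.52 (SE 0.102, limma adjusted p = 0.00797), from -0.38 in the cortex and 0.14 in the cerebellum. For Grik2 the difference was -0.37 (95% interval -0.643 to -0.0895, limma adjusted p = 0.107), and for Grik3 it was -0.29 (interval -0.615 to 0.0334, adjusted p = 0.294). For Grik4, which was lower in both regions, it was 0.04 (interval -0.227 to 0.303, adjusted p = 0.896), for Grik1 0.03 (interval -0.443 to 0.499, adjusted p = 0.961), and for Grid1 0.21 (interval -0.0688 to 0.486, adjusted p = 0.388).

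**Figure D4:**
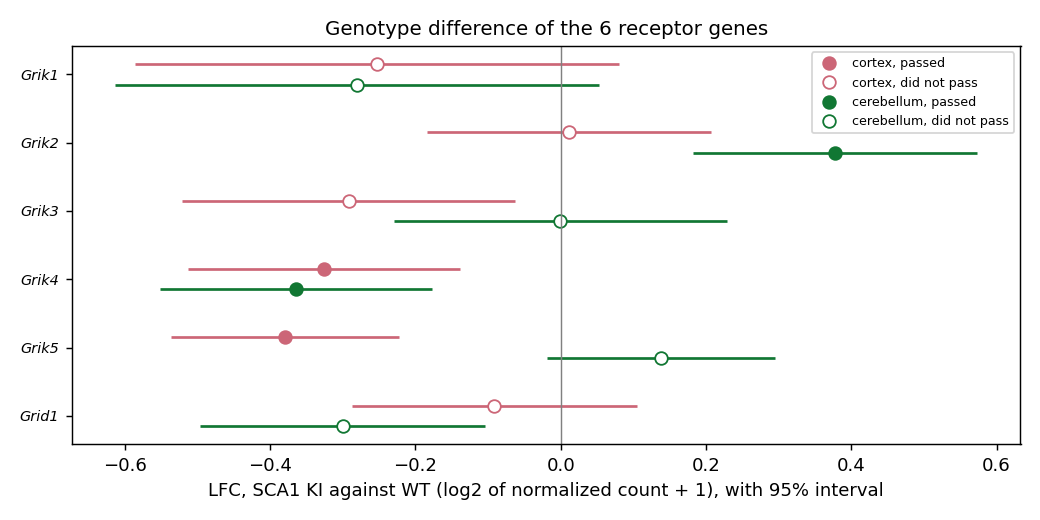
LFC of SCA1 KI against WT (x axis, log2 of the normalized count + 1) with its 95% interval for the 6 genes (y axis) in cortex and cerebellum, filled where the gene passed the test. Grik5 lies at -0.38 in the cortex and 0.14 in the cerebellum, and Grik4 at -0.33 and -0.36.

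Proteins that assemble with, traffic or edit kainate receptors were examined as a list of 15 genes, all of them tested. In the cortex 5 of the 15 were lower and 0 higher, with a median LFC of -0.21, against 10.8% lower and 4.82% higher of all entries tested. Neto2, an auxiliary subunit that slows the closing of kainate receptors, went from 4528 ± 695 normalized counts in WT to 2727 ± 243 in SCA1 KI cortex (LFC -0.72, SE 0.0999, limma adjusted p = 0.000347). Adarb1, which encodes the editing enzyme ADAR2, went from 11833 ± 220 to 8228 ± 1229 (LFC -0.54, adjusted p = 0.00106). The scaffolds Dlg4 and Dlg1 had LFCs of -0.52 (adjusted p = 0.000123) and -0.32 (adjusted p = 0.0113), and Kif17, a dendritic kinesin motor, had -0.55 (adjusted p = 0.000373). Neto1, the other auxiliary subunit, had 3520 ± 161 and 2752 ± 174 (LFC -0.36, interval -0.816 to 0.104, limma adjusted p = 0.288).

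In the cerebellum 3 of the 15 were lower and 0 higher, with a median LFC of -0.05, against 4.44% lower and 0.917% higher of all entries tested. Neto1 went from 243 ± 112 in WT to 118 ± 8.71 in SCA1 KI cerebellum (LFC -0.95, SE 0.212, limma adjusted p = 0.0198). C1ql3, a secreted C1q-like protein that binds kainate receptors, had an LFC of -0.51 (adjusted p = 0.0147), and Kif17 had -0.28 (adjusted p = 0.0481), which makes it the member of this list that was lower in both regions. The thalamus and midbrain sums were lower in SCA1 KI (2065 to 2692) than in WT cerebellum (5775 to 10908) too. So were the forebrain interneuron sums, at 917 to 989 and 1543 to 2269. The part of such tissue in the values of Neto1, C1ql3 and Kif17 was not tested. Neto2 had 7184 ± 473 and 7419 ± 103 (LFC 0.05, limma adjusted p = 0.873) and Adarb1 17892 ± 492 and 18276 ± 581 (LFC 0.03, adjusted p = 0.912). The difference between the regions was called for Neto2 (-0.77, limma adjusted p = 0.00524), Adarb1 (-0.57, adjusted p = 0.0129), Dlg4 (-0.37, adjusted p = 0.0204) and Grip1, a scaffold that binds glutamate receptors (0.67, adjusted p = 0.0216).

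Of 6 delta receptor partners, 2 were lower in the cortex and 2 in the cerebellum, and 0 were higher in either. Of all entries tested, 10.8% were lower in the cortex and 4.44% in the cerebellum. Cbln2, a cerebellin of cortex and brainstem, had 489 ± 203 normalized counts in WT and 24.1 ± 11.5 in SCA1 KI cerebellum (LFC -4.30, SE 0.362, limma adjusted p = 2.64e-05), and 1828 ± 488 and 908 ± 344 in the cortex (LFC -1.04, adjusted p = 0.0667). Cbln4, another cerebellin, was lower in both regions, with an LFC of -1.37 (adjusted p = 0.0261) for cortical and of -1.54 (adjusted p = 0.0332) for cerebellar tissue. In the cerebellum the thalamus and midbrain sums were lower in SCA1 KI libraries too. In the cortex, where both LFCs were also negative, those sums were higher in SCA1 KI (3010 to 3874) than in WT libraries (1929 to 2270). The part of that tissue in the values of Cbln2 and Cbln4 was not tested. The cerebellin of granule cells, Cbln1, had 24757 ± 4699 in WT and 24518 ± 2077 in SCA1 KI cerebellum (LFC 0.00, interval -0.550 to 0.553, limma adjusted p = 0.999), and its cortical LFC was 0.00 too (adjusted p = 0.996). Nrxn3, a presynaptic neurexin, was lower in the cortex (LFC -0.58, adjusted p = 0.00495). In the cerebellum it had an LFC of 0.17 (adjusted p = 0.531). The median LFC of the 6 was -0.81 in the cortex and 0.05 in the cerebellum.

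**Figure D5:**
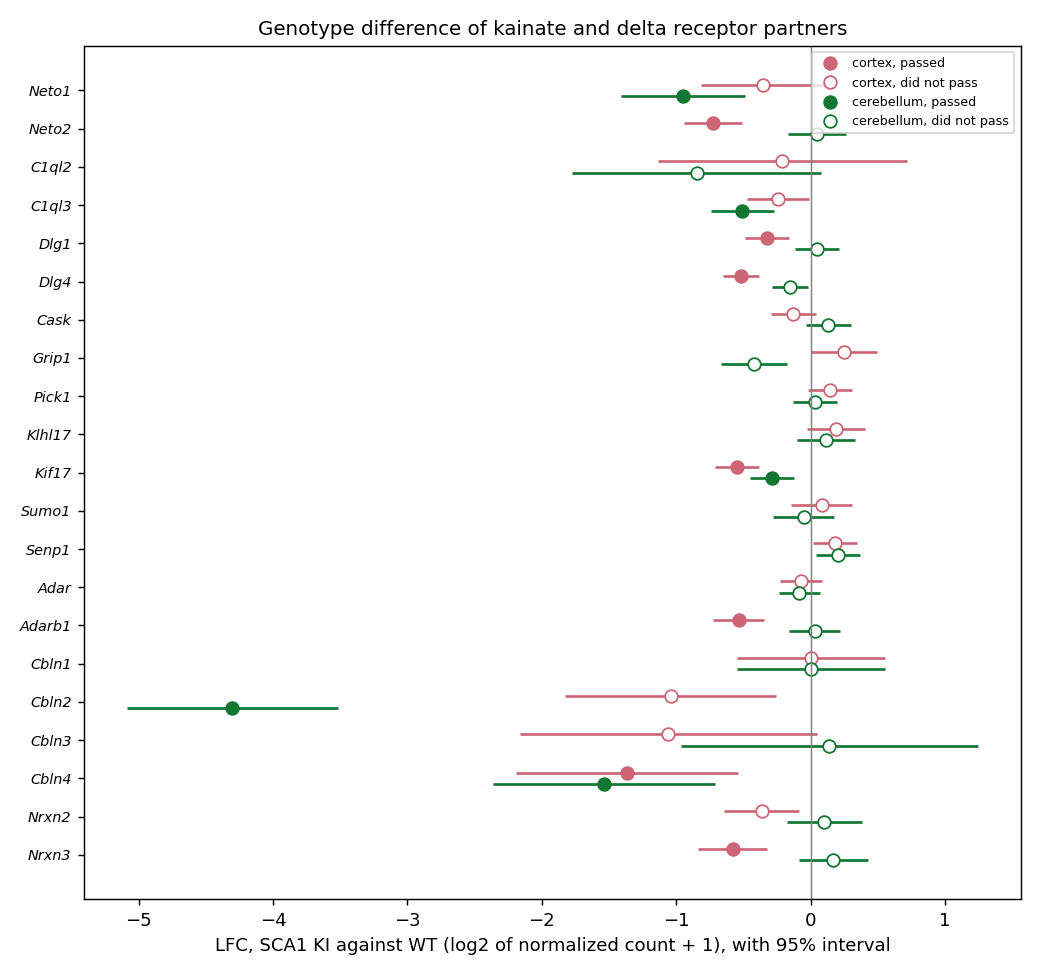
LFC of SCA1 KI against WT (x axis, log2 of the normalized count + 1) with its 95% interval for the 15 kainate and 6 delta receptor partners (y axis) in cortex and cerebellum, filled where the gene passed the test. Neto2 and Adarb1 are lower in the cortex with cerebellar values near 0, and Cbln2 lies at -4.30 in the cerebellum.

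For comparison, of the 11 AMPA and NMDA receptor subunits that make up the other ionotropic glutamate receptors, 6 were lower and 0 higher in the cortex (median LFC -0.35), and 1 was lower and 0 higher in the cerebellum (median -0.16). The shares of all entries tested that were lower were 10.8% in the cortex and 4.44% in the cerebellum. Grin2a had an LFC of -1.22 in the cortex (limma adjusted p = 3.28e-05), Gria3 of -0.59 (5.27e-05), Grin2b of -0.58 (0.0469), Grin2c of -0.52 (0.0364), Gria4 of -0.41 (0.000445) and Grin1, the obligatory NMDA receptor subunit, of -0.35 (0.00282). Gria3 was the one lower in the cerebellum (LFC -0.36, limma adjusted p = 0.00467).

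The genes whose log2 values ran most closely with each member over the 12 libraries, among 12658 genes with a mean of at least 100, largely follow the differences between the regions. They were Rasgef1a (Pearson r = 0.997) and Rasgef1c (0.996) for Grik5, Maml1 (0.997) and C030046E11Rik (0.995) for Grik2, Zfp423 (0.989) and Npas3 (0.985) for Grik1, and D130043K22Rik and Aplp1 (0.996 each) for Grid1. For Grik3 and Grik4, the members not called between the regions, the closest genes were Abcc5 (0.925) and Tsc1 (0.913), and Neu4 (0.954) and Zbtb7c (0.950). The 12 points share regions and genotypes, so the coefficients are a description.

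Markers of other cell types, as far as not given above, varied as follows. The shares of all entries tested that were called, to set beside these counts, were 4.82% higher and 10.8% lower in the cortex. In the cerebellum they were 0.917% and 4.44%. The Purkinje cell sum was 330619 to 412252 in WT and 291639 to 328699 in SCA1 KI cerebellum, with 1 of 7 lower, and in the cortex 4 of these 7, which cortical neurons also express, were lower and 1 higher. Of 8 astrocyte markers 5 were lower in the cortex and 1 in the cerebellum. In the cerebellum 1 of 7 cortical excitatory markers was higher and 1 lower, 3 of 9 forebrain interneuron markers were lower, while Dlx5 was at 0 in all 6 libraries, and 1 of 7 striatal and 1 of 6 microglial markers were lower. In the cortex 1 of 7 striatal and 1 of 7 hippocampal markers were lower, as was Alas2, the 1 blood marker tested. No marker of oligodendrocytes, granule cells or microglia passed in the cortex, none of hippocampus or blood in the cerebellum, and none of endothelium or choroid plexus in either, although the choroid plexus sum ran from 751 to 75077 among the SCA1 KI cerebella.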

How the data were processed

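Poly-adenylated RNA of whole cortex and cerebellum was sequenced by the authors as 75 bp paired-end reads. Per the labels and the methods of the study, the reads were aligned with STAR to mm10, counted per gene with featureCounts and scaled with DESeq2 (versions, annotation and strand setting not given in the sources used here). The deposited signal values are DESeq2-normalized counts of the 12 libraries. Library columns are named by region, genotype and a letter or number, which gave the group but not the replicate number of the labels. All values came back as whole reads within 0.01 after each library's size factor was removed.

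Values were tested as log2(normalized count + 1) in limma 3.58.1 (R 4.3.3, 4 group means, 12 libraries, mean of at least 10), so that the LFC understates the change of low genes. A call needed a Benjamini-Hochberg adjusted p below 0.05 over all 15369 entries and an LFC beyond 0.25. The difference between regions needed the adjusted p alone. Intervals are 95% intervals of the fit. The scripts were tested on simulated data. edgeR 4.0.16 and DESeq2 1.42.0 on the recovered reads were among the alternatives. Where nothing but the number of biological replicates is stated for the mice, the p-values measure the spread between these samples. Exon lengths came from GENCODE vM21, in which 14978 of 15758 symbols were matched.

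The members, partner lists and marker lists were chosen with earlier results of these data known. Named were all 6 members, Atxn1, partners called in either region, Neto1, Neto2, Cbln1 and Cbln2, and the 2 genes closest to each member. Grip1 and the single markers were named after their values were seen. Of the delta receptor partners and of the cortical excitatory markers, 1 entry each is not reported here, and counts, sums and medians leave it out.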

Additional observations from a re-analysis of the deposited data

Results flagged for a closer look

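The results below stand out because the genotype LFC differed between cortex and cerebellum by a test of the difference itself (limma, adjusted over all entries tested, with 3 libraries in each group). Among the receptor genes this held for Grik5, with a difference of -0.517 (cortex minus cerebellum; SE 0.102; adjusted p = 0.00797). Among the partners it held for Neto2 (-0.773), Adarb1 (-0.566), Dlg4 (-0.365) and Nrxn3 (-0.750), for which the cortical LFC was the lower one, and for Grip1 (0.672) and Cbln2 (3.26), for which the cerebellar LFC was the lower one. Among the AMPA and NMDA receptor subunits it held for Grin2a (-1.23), Grin2c (-0.768), Gria4 (-0.395) and Grin1 (-0.383). For Cbln2 the WT cerebella were also those with the higher thalamus and midbrain markers. In the cortex the sum of these markers was higher in SCA1 KI libraries, where the LFC of Cbln2 was negative too. No cause was tested.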

How the results depend on the processing

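No paired analysis was possible because the library columns do not carry the replicate numbers of the labels. With 3 libraries a group, genotype calls of Grik2, Grik3, Grik4 and Grid1 were gained or lost with single libraries. The cortical call of Grik5 and that of its difference between the regions stayed without each library in turn.

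In the cortex the count of members called, 2, became 1 with the trend on length and GC content removed (Grik4 alone) and without WT library B and SCA1 KI library A together (Grik5 alone), an alternative chosen after seeing the data. It ranged from 1 to 3 when single libraries were left out, with 1 without WT B or without SCA1 KI A and 3 without WT D. In the cerebellum the count, 2, became 1 when only the libraries of the comparison were fitted (Grik2). It became 3 with the trend on length and GC content removed (Grik2, Grik4 and Grik5). When single libraries were left out it ranged from 0 to 3. It was 0 without SCA1 KI 3 or 5 or WT 2 or 6, 1 without SCA1 KI 1 and 3 without WT 4. DESeq2 called 3 in each region. The alternatives were run for the 6 members, not for the partners. The counts for the difference between the regions (1) and between the tissues (4 in each genotype) were within 1.5 times of these under the alternatives run. Removing the trend moved the calls over all entries from 741 higher and 1661 lower to 1043 and 1353 in the cortex, and from 141 and 683 to 489 and 576 in the cerebellum.

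The sign of some values turned. Grik1 in the cortex, with an LFC of -0.25, was -0.02 without SCA1 KI library A and 0.0223 without libraries A and B both. The other values that turned were closer to 0. Grik2 in the cortex ranged from -0.060 to 0.102 when single libraries were left out. Grik3 in the cerebellum became 0.0238 with each library centred on the median and 0.0713 with the trend removed, and ranged from -0.020 to 0.035 when single libraries were left out. The difference between the regions ranged from -0.110 to 0.259 for Grik1 and from -0.031 to 0.096 for Grik4 in the same way. Grik3 between the regions in WT mice became -0.025 without both libraries, and ranged from -0.025 to 0.216. The cause was not tested.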
